A study of Homo sapiens with 18 samples.

Results

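The genes described are the zinc finger genes numbered ZNF500 to ZNF799, taken as every symbol made of ZNF and a number in that range, without ZNF598 and ZNF622. The rule uses names alone and no measured value. It found 201 members among 17017 gene symbols. They were measured in MDA-MB-231, an established human cell line of breast carcinoma, carrying a lentiviral scramble control (SC) or 1 of 2 hairpins against the mRNA of fibrillarin (SH2 and SH3). Fibrillarin, encoded by FBL, is the methyltransferase that places 2'-O-methyl groups on ribosomal RNA. All cells, controls included, were transduced, selected in puromycin for 96 h and treated with cycloheximide for 5 min before lysis. Each treatment has 3 libraries of input cytoplasmic RNA (IN) and 3 of ribosome-protected footprints (RPF), 18 in all. The protocols name the hairpins knockdown 1 and 2, and which of these is SH2 or SH3 is not given in the labels.

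C2H2 zinc finger proteins form the most numerous class of human transcription factors, and each finger typically contacts a few bases of DNA. Many carry a KRAB domain, which binds the corepressor TRIM28 (KAP1), and TRIM28 in turn brings the histone methyltransferase SETDB1 to transposable elements. KRAB zinc finger genes arose by repeated duplication and lie in long runs on chromosome 19 and elsewhere, so neighbours often resemble each other in sequence.

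All 11 members tested in 1 run of zinc finger genes on chromosome 19 had less RNA in SH2 than in SC by the fitted change. Of the 11, 7 passed the test, where 30.4% of all genes were called lower in SH2. In SH3, 4 of the 11 fell and 4 had a change above 0, and 25.2% of all genes were called lower. This run had the lowest median SH2 change of the runs with at least 4 members tested. The DNA just upstream of the start of 4 of its members is shown first. ZNF714, ZNF681, ZNF724 and ZNF726 lie in a run of 37 zinc finger genes from ZNF101 to ZNF254. A run may be crossed by a gene of another kind, as by RPSA2, which comes between ZNF681 and ZNF726 in RefSeq's order. The windows hold the 250 bases before the start in RefSeq's table (GRCh38.p14), written 5' to 3' on the gene's strand: ZNF714 at chr19:21081953-21082202, plus strand, ZNF681 at chr19:23758892-23759141, minus strand, ZNF724 at chr19:23250395-23250644, minus strand, and ZNF726 at chr19:23914636-23914885, plus strand. Capitals mark matches on either strand to GGGCGG (GC box), CCGGAAG (a core of ETS sites), TATAAA and CCAAT, and the 2 equally long longest runs of letters that all 4 windows share.
ZNF714: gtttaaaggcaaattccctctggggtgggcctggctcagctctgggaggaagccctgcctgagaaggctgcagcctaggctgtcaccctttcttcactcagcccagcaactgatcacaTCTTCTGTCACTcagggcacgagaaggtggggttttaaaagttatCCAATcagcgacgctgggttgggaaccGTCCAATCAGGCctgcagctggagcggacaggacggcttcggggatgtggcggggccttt
ZNF681: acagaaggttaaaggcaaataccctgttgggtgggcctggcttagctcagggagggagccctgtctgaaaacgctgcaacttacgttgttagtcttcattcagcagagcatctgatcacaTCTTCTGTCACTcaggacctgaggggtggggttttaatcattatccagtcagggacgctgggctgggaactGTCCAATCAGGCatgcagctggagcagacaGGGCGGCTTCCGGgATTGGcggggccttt
ZNF724: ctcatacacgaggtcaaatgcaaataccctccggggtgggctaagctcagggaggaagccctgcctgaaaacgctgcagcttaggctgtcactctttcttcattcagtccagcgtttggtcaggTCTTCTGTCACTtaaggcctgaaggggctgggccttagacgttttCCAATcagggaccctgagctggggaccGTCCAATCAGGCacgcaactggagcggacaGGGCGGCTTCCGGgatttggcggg
ZNF726: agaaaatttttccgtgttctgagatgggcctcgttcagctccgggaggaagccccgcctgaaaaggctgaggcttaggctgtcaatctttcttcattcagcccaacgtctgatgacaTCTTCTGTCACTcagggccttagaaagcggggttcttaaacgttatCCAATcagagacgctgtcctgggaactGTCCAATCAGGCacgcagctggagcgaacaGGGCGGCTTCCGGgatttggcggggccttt
Both shared runs are 12 bases long, tcttctgtcact and gtccaatcaggc, and the second contains a CCAAT. The first was found in 23 of 35116 windows of all genes (0.0655%, either strand), 20 of them windows of zinc finger genes. In all, 9 of the 209 windows of members hold it, and they belong to ZNF563, ZNF675, ZNF681, ZNF714, ZNF723, ZNF724, ZNF726, ZNF736 and ZNF737. The second was found in 31 windows of all genes (0.0883%), 27 of them of zinc finger genes, and in those of 10 members, ZNF519, ZNF675, ZNF680, ZNF681, ZNF695, ZNF714, ZNF724, ZNF726, ZNF730 and ZNF737. From ZNF101 to ZNF254, 11 of the 16 members have a window. Of these, ZNF626, ZNF682, ZNF708 and ZNF730 lack the first string, and ZNF626, ZNF682, ZNF708 and ZNF723 lack the second. Each of the 4 windows shown also has 2 CCAAT matches.

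For contrast, 4 members that rose in RNA or footprints and lie outside such runs are shown next. They are ZNF557 at chr19:7069453-7069702, plus strand, ZNF608 at chr5:124748825-124749074, minus strand, ZNF628 at chr19:55476367-55476616, plus strand, and ZNF770 at chr15:34988288-34988537, minus strand, with the same motifs in capitals.
ZNF557: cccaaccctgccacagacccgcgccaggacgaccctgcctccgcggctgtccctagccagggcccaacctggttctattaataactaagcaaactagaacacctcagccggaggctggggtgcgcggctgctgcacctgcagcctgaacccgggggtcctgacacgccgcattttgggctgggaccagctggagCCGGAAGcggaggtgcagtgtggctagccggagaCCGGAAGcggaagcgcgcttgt
ZNF608: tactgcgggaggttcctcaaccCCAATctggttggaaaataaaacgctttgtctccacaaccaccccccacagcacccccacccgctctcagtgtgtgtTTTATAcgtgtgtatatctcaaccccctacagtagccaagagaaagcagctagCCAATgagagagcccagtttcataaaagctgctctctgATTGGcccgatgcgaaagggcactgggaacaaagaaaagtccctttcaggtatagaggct
ZNF628: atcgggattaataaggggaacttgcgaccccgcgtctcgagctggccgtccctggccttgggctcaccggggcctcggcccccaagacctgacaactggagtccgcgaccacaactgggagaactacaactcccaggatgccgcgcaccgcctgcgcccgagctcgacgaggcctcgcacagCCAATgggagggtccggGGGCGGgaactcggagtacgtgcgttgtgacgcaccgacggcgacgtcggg
ZNF770: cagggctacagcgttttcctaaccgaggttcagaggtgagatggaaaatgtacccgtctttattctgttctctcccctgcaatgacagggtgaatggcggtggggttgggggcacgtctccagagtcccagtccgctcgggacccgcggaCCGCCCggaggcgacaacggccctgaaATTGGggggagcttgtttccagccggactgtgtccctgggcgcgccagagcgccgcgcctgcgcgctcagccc
The windows of ZNF557, ZNF628 and ZNF770 contain 18, 29 and 21 CG dinucleotides, and those of ZNF714, ZNF681, ZNF724 and ZNF726 contain 8, 6, 11 and 13. ZNF608, which also rose, has 6 CG dinucleotides, 3 CCAAT matches and 1 TATAAA match, so the rising members shown do not share the higher CG number. ZNF557 has 2 ETS matches and no CCAAT match. RefSeq's table matched 165 of the 201 members, with 209 windows because some genes have several starts. GGGCGG was present in 64.1% of member windows, against 42.6% of all windows and 53.7% of windows of protein-coding genes. CCGGAAG was present in 24.9% of member windows, 8.52% of all and 10.7% of protein-coding ones. CCAAT was present in 42.1%, 32% and 32.7%, and TATAAA in 3.83%, 10.7% and 9%. The median number of CG dinucleotides was 17 in member windows, 11 in all and 16 in protein-coding ones. Other members that fell do not all share the features of the falling members shown. The windows of ZNF699, ZNF670 and ZNF716 hold neither 12-base string, and that of ZNF695 holds only the second. ZNF699 also has no CCAAT match. The genes shown were chosen after their changes were seen, and a match is a string of letters, not a measured binding site.

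Members had few counts. Total counts were 23469830 to 27629488 in IN and 1662705 to 6098648 in RPF libraries. The members' share of IN counts was 0.288% for SC libraries, 0.344% for SH2 and 0.336% for SH3, and their share of RPF counts 0.129%, 0.142% and 0.15%. The median member tested had a mean of 224 RNA counts a library (778 over all genes tested) and 23.9 footprint counts (116 over all). The filter on low counts left 174 members for the RNA test and 111 for footprints. ZNF677, ZNF729 and ZNF763 had no count in any IN library. FBL RNA was 395, 349 and 421 CPM (counts per 1000000, after TMM scaling of the library total) in SC, 1.26, 4.52 and 11.2 in SH2 and 3.36, 4.15 and 2.95 in SH3, so FBL was low where the labels say so, with most FBL RNA left in SH2 replicate 3. VIM, CD44, AXL, CAV1 and MSN, high in this line, were at 65.1 CPM or more in every IN library, and ESR1, PGR and CDH1 at 0.449 CPM or less, but ERBB2 lay between 79.2 and 104 CPM and EPCAM, also on the list of genes low in this line, between 4.92 and 9.15 CPM. Nothing in the labels says that replicates are separate cultures, so p-values measure the spread between these libraries. These are bulk samples, so fewer cells with an RNA and less RNA per cell cannot be told apart.

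In RNA, members moved in both directions in both knockdowns. Relative to SC, 98 of 174 members passed the test (edgeR, adjusted p under 0.05) in SH2, 46 higher and 52 lower, with a median log2 change of -0.07. Over all genes tested in SH2, 61.4% were called, 31.1% higher and 30.4% lower, with a median of 0.01. In SH3, 67 members passed, 38 higher and 29 lower, with a median of 0.02, against 53% of all genes called, 27.8% higher and 25.2% lower, with a median of 0.03. The members' share called was thus below the background in both knockdowns, and their counts are lower too. Between the hairpins, 61 members differed, 25 higher in SH2 and 36 higher in SH3, against 39.3% of all genes called, 18.9% higher and 20.4% lower in SH2. All 3 values of the knockdown lay above those of SC for 51 members in SH2 and 57 in SH3, and below them for 62 and 35. Over all genes tested this held for 32.5% and 33.3% (above) and 31.9% and 29.6% (below). The other 290 ZNF symbols gave 67 higher and 91 lower of 265 tested in SH2, and 71 and 64 in SH3.

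**Figure D1:**
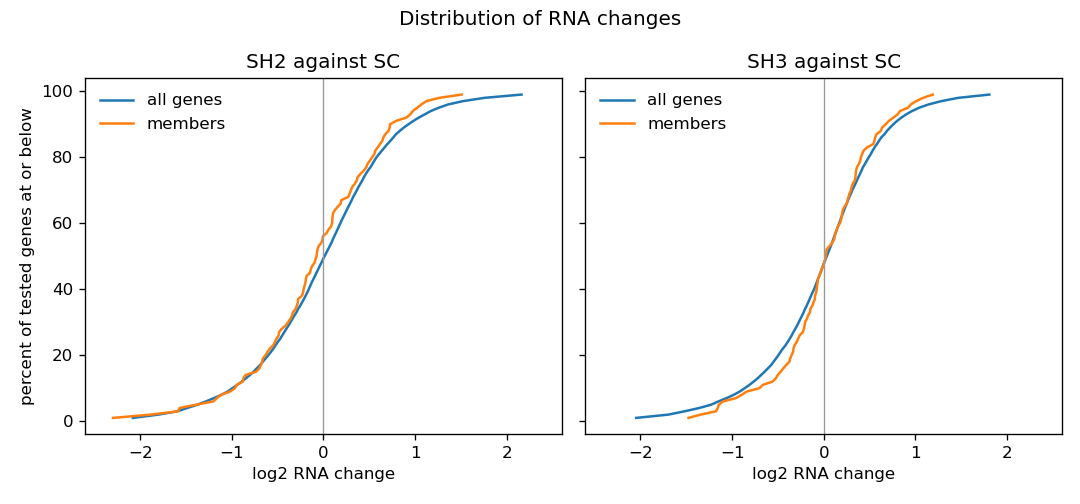
Cumulative distribution of the log2 RNA change (horizontal axis) over the members tested (174) and all genes tested (12710), from the 1st to the 99th percentile (vertical axis, percent). The lines lie close together in both knockdowns, with members' medians at -0.07 in SH2 and 0.02 in SH3.

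ZNF703, ZNF687 and ZNF503 are members with known roles in transcriptional repression and chromatin that rose. ZNF703 encodes a NET family repressor that is amplified in luminal breast cancer. Its RNA was 25.5, 34.4 and 32.2 CPM in SC, 133, 139 and 205 in SH2 and 57.2, 63.2 and 65.1 in SH3. No library of the 3 groups overlapped another group, and SH2 was the highest. The log2 change was 2.38 ± 0.16 (SE) in SH2 (adjusted p = 6.61e-08) and 1.01 ± 0.16 in SH3 (adjusted p = 0.000129), and the hairpins differed by 1.36 ± 0.16 (adjusted p = 1.78e-05). Its close relative ZNF503 was 15, 18.1 and 16.3 CPM in SC, 21.6, 28.4 and 36.7 in SH2 and 13.9, 22.3 and 20.7 in SH3. ZNF503 rose in SH2 by 0.81 ± 0.19 (adjusted p = 0.00237), while in SH3 the change was 0.20 ± 0.20 (adjusted p = 0.405) and the values overlapped SC.

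ZNF532, ZNF592 and ZNF687 encode partners of the chromatin reader ZMYND8. ZNF687 RNA was 40.2, 41.7 and 39.5 CPM in SC, 101, 93.4 and 111 in SH2 and 75.1, 75.9 and 77.1 in SH3. It rose by 1.33 ± 0.09 in SH2 (adjusted p = 7.69e-08) and 0.91 ± 0.09 in SH3 (adjusted p = 3.62e-06), with no overlap between any groups. ZNF592 rose in SH2 (0.45 ± 0.13, adjusted p = 0.00626) and gave 0.28 ± 0.13 in SH3 (adjusted p = 0.0767). ZNF532 gave -0.07 ± 0.10 and -0.22 ± 0.10, with neither called. ZNF687 overlaps PI4KB and the antisense gene ZNF687-AS1 in RefSeq, and whether counting used strand is not given in the sources used here.

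ZNF777 and ZNF746 are neighbours on chromosome 7 and both rose. ZNF746 (PARIS) is a parkin substrate that represses PPARGC1A. ZNF777 RNA was 32.5, 33.7 and 36.2 CPM in SC, 75.9, 92.1 and 106 in SH2 and 61.7, 82.5 and 80 in SH3. Its log2 change was 1.42 ± 0.14 in SH2 and 1.13 ± 0.14 in SH3 (adjusted p = 1.2e-06 and 1.51e-05). ZNF746 rose by 1.07 ± 0.11 and 0.56 ± 0.11 (adjusted p = 1.5e-06 and 0.000555). ZNF628 rose by 1.09 ± 0.14 and 1.08 ± 0.14, from 37.1, 32.8 and 37.7 CPM in SC to 62.7, 78.8 and 87.1 in SH2 and 64.2, 89.4 and 74.5 in SH3. ZNF517 rose by 0.95 ± 0.18 and 1.00 ± 0.19 at a lower level, 3.21 to 4.88 CPM in SC and 7.56 to 10.2 CPM in the knockdowns. ZNF596 and ZNF572 also rank among the largest rises (1.75 ± 0.39 and 1.35 ± 0.40 for ZNF596, 1.19 ± 0.41 and 1.43 ± 0.40 for ZNF572), but rest on 10 to 58 and 5 to 24 counts a library. Without SH3 replicate 1 the SH3 call of ZNF596 was lost (adjusted p = 0.064), and the SH2 call of ZNF572 was lost without SC replicate 3 or SH2 replicate 1 and with DESeq2 (adjusted p up to 0.108).

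**Figure D2:**
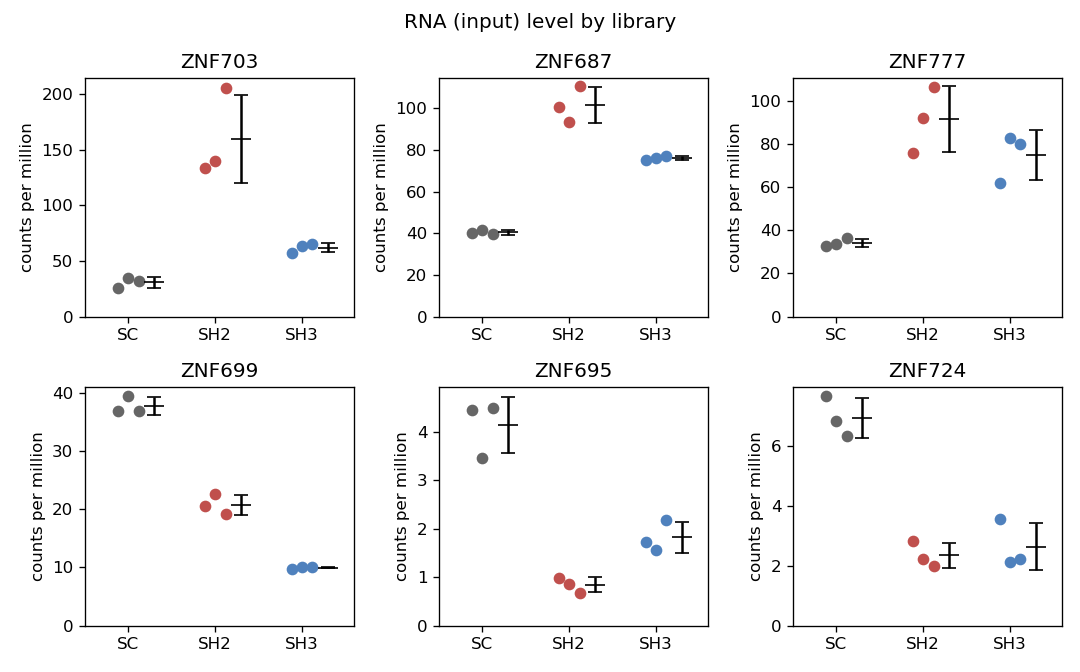
RNA level (CPM, linear axes from 0) of 6 members in the 3 SC, 3 SH2 and 3 SH3 libraries (points), with the mean and SD beside them. ZNF703, ZNF687 and ZNF777 are above SC in all 6 knockdown libraries, and ZNF699, ZNF695 and ZNF724 are below SC in all 6. ZNF703, ZNF777, ZNF695 and ZNF724 met a rule of choice that required no overlap with SC.

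Among the members that fell, ZNF699 had the clearest separation. ZNF699 encodes a KRAB zinc finger protein named as a homologue of the fly gene hangover. Its RNA was 36.9, 39.5 and 36.9 CPM in SC, 20.5, 22.7 and 19.2 in SH2 and 9.8, 10.1 and 10 in SH3. The 3 groups did not overlap, and here SH3 was the lowest. ZNF699 fell by 0.86 ± 0.10 on the log2 scale in SH2 (adjusted p = 8.07e-06) and by 1.92 ± 0.11 in SH3 (adjusted p = 5.39e-08). ZNF695 went the other way between hairpins, at 4.45, 3.46 and 4.48 CPM in SC, 0.981, 0.865 and 0.676 in SH2 and 1.72, 1.55 and 2.18 in SH3. It fell by 2.30 ± 0.24 and 1.18 ± 0.22 (adjusted p = 2.36e-06 and 0.000499).

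ZNF724, ZNF704 and ZNF618 fell with both hairpins. ZNF724 was 7.67, 6.84 and 6.33 CPM in SC, 2.82, 2.22 and 1.99 in SH2 and 3.56, 2.14 and 2.22 in SH3. Its log2 change was -1.57 ± 0.22 and -1.39 ± 0.22, and the difference between hairpins was -0.17 ± 0.23 (adjusted p = 0.58). ZNF704 changed by -1.31 ± 0.16 and -1.28 ± 0.17, and ZNF618 by -1.58 ± 0.21 and -1.15 ± 0.21. ZNF726 (-2.44 ± 0.39 and -1.49 ± 0.35) and ZNF716 (-2.10 ± 0.48 and -1.16 ± 0.44) had only 0.816 to 1.57 CPM in SC and rest on 4 to 38 and 2 to 29 counts. The SH3 call of ZNF716 was lost in 5 of 12 alternatives, among them without SC replicate 2 or 3 or SH3 replicate 1 or 2 (adjusted p up to 0.12).

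Other members with known roles are given with their changes in each knockdown. ZNF593, the homologue of a yeast 60S ribosomal subunit factor, rose by 0.91 ± 0.15 in SH2 and 0.64 ± 0.15 in SH3. ZNF638 (NP220), which silences unintegrated retroviral DNA with the HUSH complex, gave 0.18 ± 0.10 in SH2 (adjusted p = 0.126) and rose by 0.48 ± 0.10 in SH3. ZNF521, which binds the NuRD complex, gave -0.12 ± 0.13 in SH2 and rose by 0.62 ± 0.13 in SH3, from 35.6, 48.1 and 42.3 CPM in SC to 64.8, 60.1 and 69.3. ZNF706, a small zinc finger protein, fell by 0.28 ± 0.10 and 0.89 ± 0.10, and its SH2 call was lost without SC replicate 3, SH2 replicate 1 or SH2 replicate 3 (adjusted p up to 0.109). ZNF639 fell in SH2 (-0.88 ± 0.16, adjusted p = 0.00026) and gave -0.16 ± 0.15 in SH3. ZNF668 rose in SH2 (0.37 ± 0.12, adjusted p = 0.0117), a call lost without SH2 replicate 3 (adjusted p = 0.0681). ZNF692 rose in SH3 (0.35 ± 0.12, adjusted p = 0.0295), and ZNF644, a partner of the histone methyltransferase G9a, rose in SH3 (0.29 ± 0.11, adjusted p = 0.046), calls that were lost in 4 and 7 of 12 alternatives. Both were lost without SC replicate 1, SC replicate 3, SH3 replicate 2 or SH3 replicate 3, and that of ZNF644 also without SH3 replicate 1 (adjusted p up to 0.203 and 0.193). ZNF516, ZNF589, ZNF609, ZNF652, ZNF655 and ZNF658 passed the test against SC with neither hairpin, and ZNF750, an epidermal differentiation factor, had 0 or 1 count in each IN library. By RNA counts in SC, which also grow with transcript length, ZNF644, ZNF592, ZNF609, ZNF639 and ZNF532 were the highest members.

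Members were also described by their position. In RefSeq's gene order 136 of 199 matched members have a zinc finger gene as a direct neighbour, and 106 lie on chromosome 19. In SH2, members with such a neighbour gave 23 higher and 37 lower of 116 (median -0.19), and members without one 23 higher and 15 lower of 57 (median 0.10). In SH3 the counts were 19 and 24 (median -0.03) and 19 and 5 (median 0.20). As shares, members with a zinc finger neighbour were called higher in 19.8% and lower in 31.9% in SH2 and in 16.4% and 20.7% in SH3. Without one, these shares were 40.4% and 26.3% in SH2 and 33.3% and 8.77% in SH3. All genes had 31.1% and 30.4% in SH2 and 27.8% and 25.2% in SH3. Members on chromosome 19 gave 21 higher and 30 lower of 87 in SH2, while all genes of that chromosome gave 365 higher and 211 lower of 912. In SH3 they gave 15 higher and 18 lower, and all genes of the chromosome 260 and 194. The 9 tested members on chromosome 8 gave 6 higher and 2 lower in each knockdown, against 130 and 146 of 433 chromosome 8 genes in SH2 and 105 and 130 in SH3. These groupings were made after the changes were seen, are given without a test, and neighbours share sequence, so reads matching several genes could link their counts.

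Within the run from ZNF101 to ZNF254, 11 members were tested. All 11 had a log2 RNA change below 0 in SH2 (median -0.81) and 7 fell, none rose. In SH3, 4 of the 11 fell, the median was -0.21 and 4 were above 0. ZNF714 in this run was 9.14, 10.3 and 9.32 CPM in SC, 1.65, 1.88 and 2.31 in SH2 and 5.4, 3.61 and 4.29 in SH3. ZNF681 was 7.51, 5.19 and 5.7 CPM in SC, 3.53, 2.71 and 1.99 in SH2, and 9.32, 5.58 and 6.82 in SH3. It thus lay below SC in SH2 and overlapped it in SH3. In RefSeq ZNF681 overlaps the protein-coding gene RPSA2. ZNF714 and ZNF681 were chosen after their values were seen. Of the 9 members whose windows hold the first of the 12-base strings, 8 were tested in RNA, and 6 fell in SH2 (median -1.35) and 5 in SH3 (median -0.91). Of the 10 with the second, 9 were tested, and 7 fell in SH2 (median -1.57) and 4 in SH3 (median -0.57). Both strings were read from ZNF714, ZNF681, ZNF724 and ZNF726, which were chosen after their changes were seen. These 4 genes are among the members with each string, so the counts and medians are only a description. Over all genes, 30.4% were called lower in SH2 and 25.2% in SH3.

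The other runs differed in direction. There were 9 runs with at least 4 members tested in RNA, and all are given here, against 31.1% of all genes higher and 30.4% lower in SH2 and 27.8% and 25.2% in SH3. From ZNF565 to ZNF573, 5 of 12 members fell in SH2 and 3 in SH3, and none rose. From ZNF577 to ZNF816, 1 rose and 5 fell of 11 in SH2, and 1 rose and 4 fell in SH3. From ZNF264 to ZNF837, 6 rose and 3 fell of 17 in SH2, and 2 rose and 1 fell in SH3. From ZNF699 to ZNF846, 3 of 4 fell in SH2 and 2 in SH3, and none rose. From ZNF627 to ZNF791, 1 rose and 2 fell of 6 in SH2, and 4 fell in SH3. From ZNF579 to ZNF580, also on chromosome 19, 3 of 5 rose with each hairpin and none fell (medians 0.37 and 0.81). On chromosome 16, from ZNF768 to ZNF689, 2 of 6 rose in SH2 and 1 in SH3, and none fell. On chromosome 7, 3 of the 4 members ZNF786, ZNF783, ZNF777 and ZNF746 rose with each hairpin, with a median of 0.87 in SH2 and 0.70 in SH3.

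**Figure D3:**
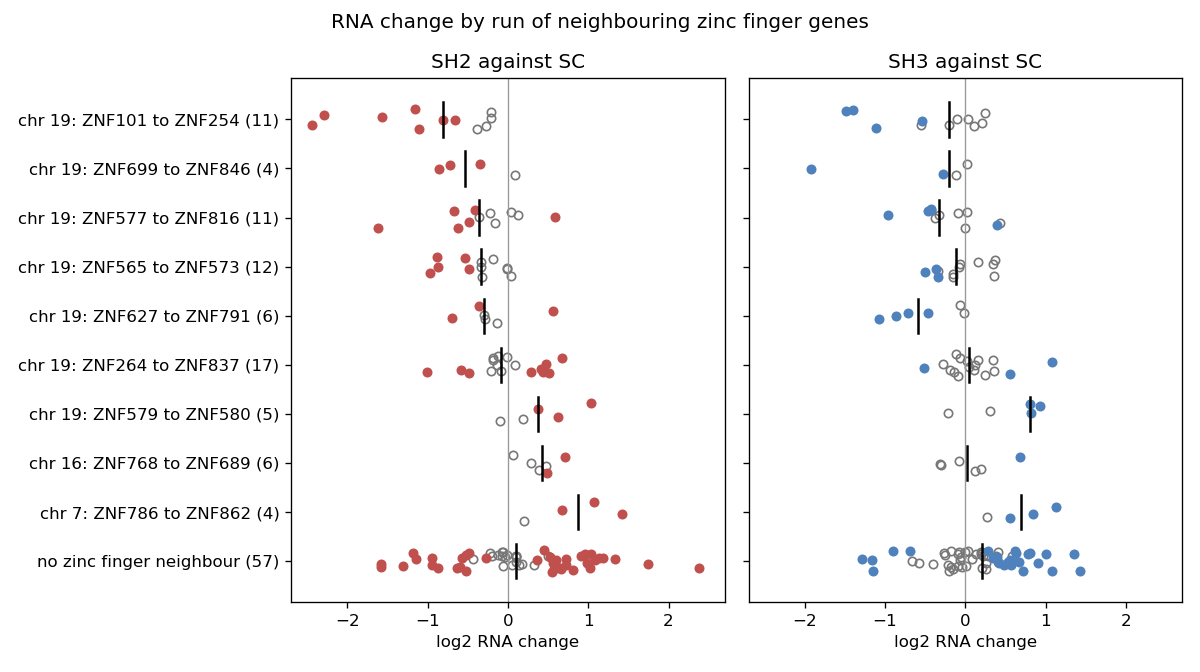
Log2 RNA change (horizontal axis) of members for each hairpin (number tested in brackets). Rows are the 9 runs of zinc finger genes with at least 4 tested members, ordered by their median in SH2. The last row holds members with no zinc finger gene as a direct neighbour. ZNF579 is in both its run and the last row, since FIZ1 lies between it and ZNF524 in that run. Filled points passed the test, open points did not, vertical bars are medians, and the vertical scatter within a row carries no meaning. The 11 members from ZNF101 to ZNF254 all lie below 0 in SH2, and those from ZNF579 to ZNF580 have medians of 0.37 and 0.81.

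Footprints, which are reads of RNA protected by ribosomes, moved mostly as RNA did. In SH2, 30 of 111 members passed the test, 15 higher and 15 lower, against 44.2% of all genes, 21% higher and 23.2% lower. In SH3, 19 passed, 14 higher and 5 lower, against 35.9% of all genes, 16.9% higher and 19% lower. Between hairpins 10 differed, 4 higher and 6 lower in SH2, against 23.8% of all genes, 12.1% higher and 11.6% lower. The median log2 footprint change was -0.01 in SH2 and 0.13 in SH3. These counts changed when single libraries were left out, with 115 to 118 members tested. Leaving out a library leaves fewer samples for all genes, and shares of all genes are not given for these settings. In SH2, 8 were higher without SH2 replicate 3, and 8 or 9 were lower without SC replicate 1 or SH2 replicate 3. In SH3, 8, 6 and 9 were higher without SC replicate 3, SH3 replicate 2 or SH3 replicate 3, and 2, 2, 2 and 3 were lower without SC replicate 1, SC replicate 3, SH3 replicate 1 or SH3 replicate 3. Between hairpins, 3 and 2 were lower in SH2 without SH2 replicate 2 or SH3 replicate 2.

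ZNF703 footprints were 11.9, 9.27 and 12.4 CPM in SC, 61.1, 44.8 and 85.5 in SH2 and 18.7, 19.9 and 33 in SH3. They rose by 2.47 ± 0.26 in SH2 (adjusted p = 3.65e-06) and 1.08 ± 0.28 in SH3 (adjusted p = 0.007), and the SH3 call was lost without SH3 replicate 3 (adjusted p = 0.0674). ZNF687 footprints were 21.9, 19 and 25.7 CPM in SC, 44.8, 52.4 and 61.2 in SH2 and 33.4, 46.9 and 48.7 in SH3, a rise of 1.23 ± 0.19 and 0.95 ± 0.19 with no overlap with SC. ZNF557 rose by 1.28 ± 0.29 and 1.03 ± 0.31, and ZNF608 by 1.02 ± 0.24 and 1.56 ± 0.24. The SH3 call of ZNF557 was lost without SC replicate 3 or SH3 replicate 1 (adjusted p up to 0.0754). ZNF770 rose in footprints by 0.87 ± 0.18 and 0.69 ± 0.19, with RNA changes of 0.10 ± 0.13 and 0.40 ± 0.13. Without SH3 replicate 2 its SH3 call was lost (adjusted p = 0.0618).

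ZNF699 footprints were 35.6, 29.1 and 37.8 CPM in SC, 15.6, 10.5 and 13.3 in SH2 and 8.2, 5.48 and 6.31 in SH3. They fell by 1.41 ± 0.21 and 2.41 ± 0.24 (adjusted p = 5.68e-05 and 3.71e-06), again with SH3 the lowest. ZNF618 footprints fell by 1.36 ± 0.31 and 0.92 ± 0.31, and ZNF670 by 0.94 ± 0.34 and 1.16 ± 0.37. The SH3 call of ZNF618 was lost in 5 of 13 alternatives, among them without SC replicate 3, SH3 replicate 1 or SH3 replicate 2 (adjusted p up to 0.142). The calls of ZNF670, which shares a readthrough transcript with ZNF695 in RefSeq, were lost in 6 and 5 of 12, in SH2 without SC replicate 1 or 3 or any SH2 library (adjusted p up to 0.177) and in SH3 without SC replicate 1 or 3 or SH3 replicate 1 or 3 (adjusted p up to 0.111).

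**Figure D4:**
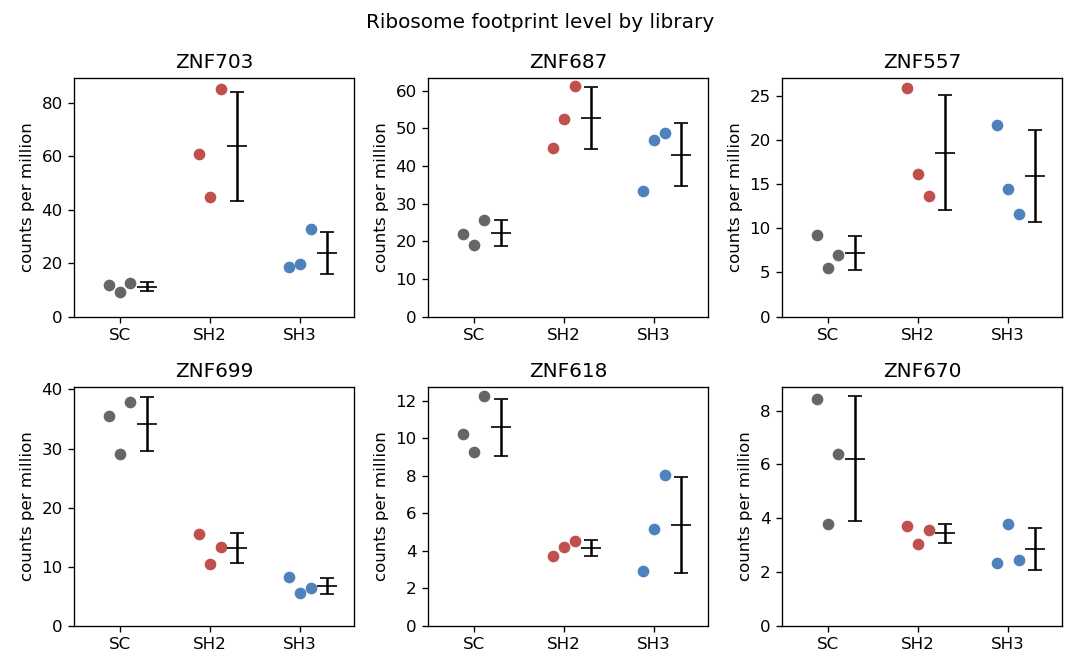
Footprint level (CPM, linear axes from 0) of 6 members in each RPF library (points), with the mean and SD beside them. ZNF703, ZNF687 and ZNF557 are above SC and ZNF699, ZNF618 and ZNF670 below it in the knockdown libraries. All 6 met a rule of choice that required no overlap with SC.

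Across the 111 members measured both ways, the log2 changes of RNA and footprints correlated (Pearson's r 0.805 for SH2, 0.704 for SH3) across genes, which are not replicates and share libraries. In SH2, 12 members were called higher and 11 lower in both, 1 had opposite calls, 41 passed only the RNA test and 6 only the footprint test. In SH3, 11 were higher and 5 lower in both, 31 passed only the RNA test and 3 only that of footprints. The 176 other ZNF symbols tested both ways gave r 0.759 for SH2 and 0.739 for SH3. In SH2, 21 of them were higher and 23 lower in both, 60 passed only the RNA test and 10 only the footprint test. In SH3 these counts were 21, 12, 58 and 6. The same values were not computed over all genes. The member with opposite calls was ZNF511, whose RNA rose and whose footprints fell in SH2. Its footprint call was lost in 4 of 13 alternatives, with footprints thinned to equal depth and without SC replicate 1, SH2 replicate 1 or SH2 replicate 3 (adjusted p up to 0.116).

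Translational efficiency, the footprint change minus the RNA change in 1 model, fell for 3 members in SH2. ZNF511 RNA was 19.9, 21.3 and 22 CPM in SC and 35.2, 28.3 and 36.1 in SH2, while its footprints were 14, 8.85 and 8.7 CPM in SC and 5.18, 6.29 and 5.18 in SH2. Its efficiency changed by -1.61 ± 0.29 in SH2 (adjusted p = 0.00382) and -0.995 ± 0.29 in SH3 (adjusted p = 0.127). ZNF593 footprints were 30, 32 and 32.1 CPM in SC and 33.3, 28.7 and 32.4 in SH2, while its RNA was 26.8, 23.9 and 27.5 in SC and 51.3, 41.8 and 53.9 in SH2. Its efficiency changed by -0.93 ± 0.22 (adjusted p = 0.0224), lost without SC replicate 3, SH2 replicate 1 or SH2 replicate 3 (adjusted p up to 0.109). ZNF777 changed by -0.90 ± 0.22 (adjusted p = 0.0261), and the call was lost in 6 of 13 alternatives, among them without SC replicate 1 or 3 or SH2 replicate 2 or 3 (adjusted p up to 0.126). ZNF511 overlaps TUBGCP2 and ZNF511-PRAP1, and ZNF593 overlaps ZNF593OS in RefSeq. Reads of overlapping genes cannot be told apart without strand, nor with it where the genes share a strand.

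Of 174 members tested for efficiency, these 3 made up the calls in SH2, against 3.9% of all genes called. DESeq2 called 9 members there. Leaving out both the IN and the RPF library of SC replicate 3, or of SH2 replicate 3, left 1 call in edgeR. In SH3 edgeR called 0 members against 0.686% of all genes, and DESeq2 called 3. An unadjusted p under 0.05 was found in SH3 for 16 of 174 members, against 1574 of 12531 genes. Without SC replicate 1 edgeR called 1. Between hairpins edgeR called 0 against 0.016% of all genes, and DESeq2 called 0. There, 10 members had an unadjusted p under 0.05, against 1471 of 12531 genes. The shares of all genes called by DESeq2 are not given here. The members nearest to a higher efficiency were ZNF704 (1.54 ± 0.45) and ZNF608 (0.89 ± 0.26) in SH3, both uncalled (adjusted p = 0.12). The median SE of the members' change in SH2 was 0.37 for efficiency, 0.30 for footprints and 0.15 for RNA, and 64 of the 174 members had a mean under 10 footprint counts, so few calls do not show that efficiencies were alike.

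**Figure D5:**
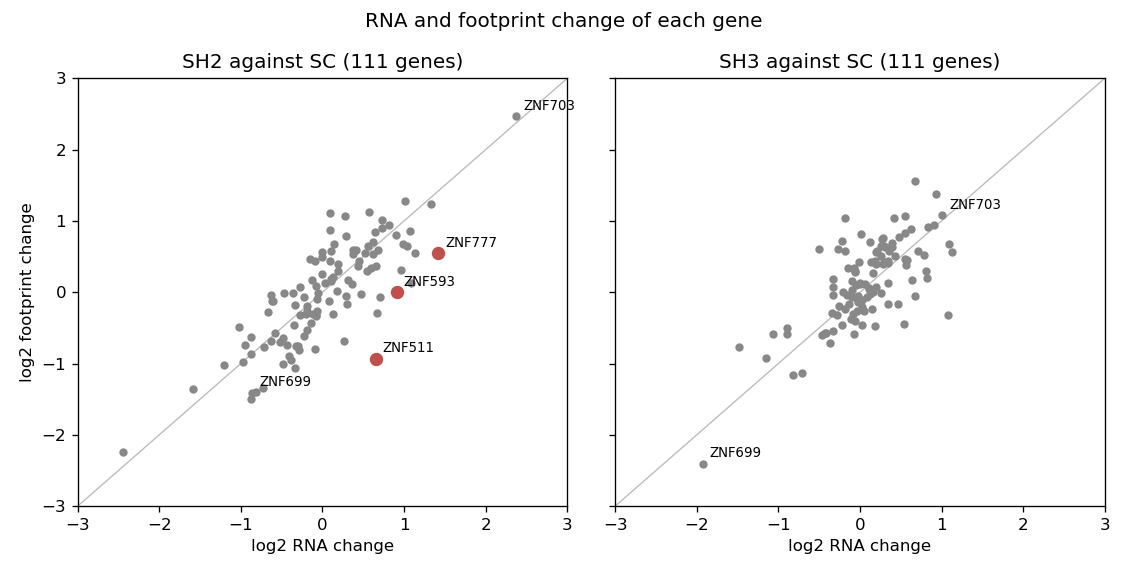
Log2 footprint change against log2 RNA change for the 111 members tested in both, for each hairpin, with the diagonal of equal change. Red points passed the test of efficiency: ZNF511, ZNF593 and ZNF777 in SH2, below the diagonal, and none in SH3.

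RNA and footprints were also described for a list of 40 genes linked to silencing by KRAB zinc finger proteins or to chromatin. Of these genes, 39 were tested in RNA. In SH2, 12 rose and 13 fell (median -0.10), against 31.1% and 30.4% of all genes, and in SH3, 15 rose and 5 fell (median 0.18), against 27.8% and 25.2%. In footprints, 4 rose and 11 fell of 37 in SH2, and 9 rose and 5 fell in SH3, where all genes had 21% and 23.2% in SH2 and 16.9% and 19% in SH3. TRIM28 RNA rose by 0.41 ± 0.12 and 0.42 ± 0.12, from 404, 484 and 478 CPM in SC to 532, 596 and 681 in SH2 and 525, 675 and 622 in SH3. SETDB1 RNA rose by 0.64 ± 0.09 and 0.68 ± 0.09, and its footprints by 0.45 ± 0.14 and 0.85 ± 0.14. TRIM28 footprints gave 0.36 ± 0.17 and 0.35 ± 0.17, with neither called (adjusted p = 0.0964 and 0.115).

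In the authors' deposited table, 181 members had an adjusted p in IN with SH2, and at under 0.05, 44 were up and 53 down. With SH3, 179 had one in IN, and 35 were up and 33 down. Over all genes with an adjusted p, 54.7% were called in IN with SH2 and 49.4% with SH3. In RPF, 14 were up and 11 down of 169 members with SH2, then 11 and 3 of 165 with SH3. Over all genes, 34.6% were called in RPF with SH2 and 28.8% with SH3. The RD columns of that table are identical for SH2 and SH3 in 17017 of 17017 genes, so they were not used.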

How the data were processed

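Cytoplasmic RNA and footprints were sequenced in 18 libraries. The authors deposited raw read counts per gene, the count divided by a size factor (DESeq2-normalized signal, per the file headers), and their own log2 fold changes and p-values. Bowtie 1.2.2 and DESeq2 are named in the submitters' processing notes. Counting tool, build, strand and treatment of reads matching several genes are not given in the sources used here. Counts were tested with edgeR 4.0.16 (limma 3.58.1, R 4.3.3): filterByExpr, TMM scaling, quasi-likelihood test, two-sided, Benjamini-Hochberg adjustment over all genes tested. RNA and footprints had 1 fit of 9 libraries each, and efficiency 1 fit of 18 with an interaction. DESeq2 1.42.0 was an alternative. SE is the log2 change divided by the root of F.

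Members and lists were chosen with earlier results of these data known. Named members are those on a list of roles, any called in opposite directions with the 2 hairpins (none), and the 5 highest in SC RNA. Added to these are up to 6 per direction for RNA, 5 for footprints and 4 for efficiency. Those for RNA and footprints had to be called in the same direction in both knockdowns, with no library overlapping SC. They were ranked by the smaller of their 2 changes, so their separation from SC was fixed by the choice. Those for efficiency had the lowest p-values. Footprint levels per coding length were not ranked, since coding lengths are not used here. On simulated data the test's estimates were checked. Of planted log2 changes of 1, 99.5% were recovered for RNA, 96% for footprints and 44.5% for efficiency. A first requirement, that most of the planted changes be recovered in every measure, was missed by efficiency, whose power is thus low. It was replaced after that result by limits on bias and false calls. Changes were planted only in genes above a minimum mean count, so these shares need not hold for members with few counts. The simulation also gave all genes 1 fixed spread per measure and left the other genes unchanged. These data differ in both, so the shares are not the test's power here. Replicate numbers paired SC with SH2 (correlations of 0.279 to 0.347 in RNA and 0.236 to 0.285 in footprints), from the data and not from the labels. Pairs with SH3 ranged from -0.066 to 0.417 in RNA and from -0.105 to 0.294 in footprints. IN with RPF ranged from -0.481 to 0.489, so ratios of same-numbered libraries are not used. Replicates differed beyond counting noise (chi-square per degree of freedom 3.55 to 58.7).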

Additional observations from a re-analysis of the deposited data

Results flagged for a closer look

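The named members below are listed because the direct test between hairpins (edgeR, adjusted p under 0.05) found that SH2 and SH3 differed. In RNA, the log2 difference of SH2 minus SH3 was as follows. The 14 members differed thus: ZNF503 by 0.61, ZNF516 by 0.34, ZNF521 by -0.75, ZNF557 by 0.60, ZNF638 by -0.30, ZNF639 by -0.72, ZNF655 by -0.47, ZNF670 by 0.44, ZNF687 by 0.42, ZNF695 by -1.12, ZNF699 by 1.06, ZNF703 by 1.36, ZNF706 by 0.62 and ZNF746 by 0.51.

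In footprints, 6 members differed between the hairpins, again as SH2 minus SH3: ZNF521 by -1.20, ZNF589 by -1.57, ZNF638 by -0.75, ZNF699 by 0.99, ZNF703 by 1.39 and ZNF706 by 0.66. ZNF521, ZNF638, ZNF699, ZNF703 and ZNF706 differed in the same direction in RNA and in footprints. ZNF589 rests on 4 to 29 footprint counts a library, and its call was lost in 4 of 12 alternatives, namely without SH2 replicate 2 or 3 or SH3 replicate 1 or 2 (adjusted p up to 0.0886). ZNF516 lost its RNA call in 6 of 12 alternatives (adjusted p up to 0.153), without SH2 replicate 2 or 3 or any SH3 library and without the low-count filter. The RNA calls of ZNF503 (without SH2 replicate 3 or SH3 replicate 1), ZNF638 (without SH2 replicate 3, SH3 replicate 1 or SH3 replicate 3) and ZNF670 (without SH3 replicate 2 or 3) and the footprint calls of ZNF638 (without SH2 replicate 2 or SH3 replicate 2) and ZNF699 (without SH3 replicate 2) were lost too. FBL RNA was 1.26, 4.52 and 11.2 CPM in SH2 and 3.36, 4.15 and 2.95 in SH3, and its part in these differences was not tested.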

How the results depend on the processing

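Of 101 called values of named members, 65 kept their call in every alternative, 36 lost it in some, and none changed direction. RNA counts of members stayed within 1.5 times in every alternative. Leaving out 1 library gave 40 to 46 higher and 43 to 54 lower in SH2, 26 to 36 and 21 to 30 in SH3, and 18 to 25 and 25 to 40 between hairpins. For footprints these ranges were 8 to 17 higher and 8 to 15 lower in SH2. They were 6 to 20 and 2 to 6 in SH3, and 3 to 5 and 2 to 7 between hairpins. For efficiency the IN and the RPF library of the same treatment and number were left out together. This gave 1 to 4 calls in SH2, 0 to 1 in SH3 and 0 between hairpins. With footprint libraries thinned to equal depth, 77 members were tested for footprints. Of these, 9 were higher and 9 lower in SH2, and 2 were lower in SH3. With the same thinning 1 member was called for efficiency in SH3. With DESeq2, 2 footprint members were lower in SH3, and 9 (SH2) and 3 (SH3) were called for efficiency. Without a low-count filter 1 was called for efficiency in SH3. With only the groups compared in the fit, 11 footprint members were lower in SH2 than in SH3. Thinning and left-out libraries leave fewer counts or samples for all genes, and for the other settings the cause was not tested. Shares of all genes called in these alternatives are not given here.

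With the replicate number as a block, RNA calls in SH2 were 48 higher and 56 lower, and footprint members lower in SH2 than in SH3 became 11. The block changed no call of SH2 against SC among named members. It added 10 calls among pairs with SH3 and lost 0 of 312 values. For efficiency the block left 3 calls in SH2. Depth limits the footprint results, since 90 of 201 members were not tested there.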
